A study of Drosophila melanogaster with 4 samples.

Results

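The euchromatic X chromosome of Drosophila melanogaster carried 252 of 1386 ORC2 peaks in replicate 1, 281 of 1600 in replicate 2 and 100 of 540 regions shared by both replicates. A peak was counted here when its midpoint lay on X at or below 20 Mb, in coordinates of FlyBase release 5.1, which leaves out the end of X nearest the centromere. The choice used position alone and no measured value. The peaks came from chromatin immunoprecipitation and sequencing (ChIP-seq) of 2 embryo samples with a crude rabbit polyclonal antibody raised against the full-length fly ORC2 protein. The embryos were a mixture of stages from 0 to 24 h, and the labels give neither strain nor sex. The series also describes 2 samples of input DNA, sheared chromatin without immunoprecipitation, which were not analysed here. Each ChIP sample had its own list of peaks, and a series-level list joined peaks that overlapped between the replicates. Chromatin was cross-linked, fragments of 150 to 200 bp were selected, and reads of 36 nt were sequenced single-end, per the labels and the design text. The lists hold no read counts, so sequencing depth is unknown, and the score printed beside each peak has no stated unit.

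ORC2 belongs to the origin recognition complex (ORC), which binds DNA before S phase and loads the MCM helicase at places where replication can start. In flies ORC has no strict consensus sequence and is often found in open chromatin at promoters of active genes. The X chromosome is known for a chromatin state of its own in male flies, where the MSL complex acetylates histone H4 along X and raises transcription of the single copy. In male fly cells this chromatin is also known to replicate early. The deposited lists give positions and scores only, so no sequence or gene name is attached to the regions described here.

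The shared regions on X were short and covered 28.0 kb in all. Their median width was 242.5 bp, from 86 to 1184 bp, and their median score was 2.40, from 1.75 to 4.04. The deposited score of each was the mean of its replicate peaks, and its ends were the outer ends of those peaks, in 540 of 540 regions of the whole list with a tolerance of 1e-05. Of the 100 regions on X, 2 joined more than 1 peak of a replicate. Replicate peaks of the same region lay close together, with a median distance of 31.75 bp between their midpoints, and in 85 of 100 regions this distance was at most 100 bp. The peak of replicate 1 was the wider one in 70 of 100 regions on X (70.0%, Wilson 95% interval 60.4 to 78.1), against 75.3% (70.2 to 79.8) of 304 regions on 2L, 3L and 3R.

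The highest score on X belonged to a region of 109 bp at X 9580364 to 9580472. Its peak scored 2.90 in replicate 1 and 5.18 in replicate 2, giving 4.04 ± 1.61 (SD, n = 2). Scores have no unit, and the median X peak scored 2.30 in replicate 1 and 2.62 in replicate 2. Score differences between replicates are therefore descriptions, here and below. The next, 199 bp at X 10665818 to 10666016, scored 2.29 in replicate 1 and 5.55 in replicate 2. The position of both at the head of the ranking therefore rested on replicate 2, and the second of them had the largest score difference between replicates of all 100 regions, 3.26. In the third region, 270 bp at X 3674962 to 3675231, the scores of 3.30 in replicate 1 and 4.30 in replicate 2 lay closer together, and the mean was 3.80 ± 0.71 (SD, n = 2).

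Ranks 4 to 8 were led by replicate 1. The region of 375 bp at X 12469717 to 12470091 scored 4.28 in replicate 1 and 3.26 in replicate 2. The region of 138 bp at X 1936262 to 1936399 scored 4.56 in replicate 1 and 2.88 in replicate 2. The region of 222 bp at X 8699891 to 8700112 scored 4.43 in replicate 1 and 2.96 in replicate 2. These 3 regions stood at least 31.86 kb from any other shared region, so they were isolated within the shared list. Peaks of single replicates near them were not counted. The regions of rank 2 and rank 3 had their nearest shared region 0.28 and 0.911 kb away. At X 13616251 to 13616398 the scores were 3.87 in replicate 1 and 3.15 in replicate 2, and at X 9473946 to 9474078 they were 3.51 in replicate 1 and 3.19 in replicate 2. Among the 12 highest, this last region had the smallest spread between replicates, 3.35 ± 0.23 (SD, n = 2), and 79.7% of its length was covered by both peaks.

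Ranks 9 to 12 were again led by replicate 2. The region of 503 bp at X 19780948 to 19781450 scored 2.10 in replicate 1, over a peak of 503 bp, and 4.41 in replicate 2, over a peak of 68 bp. Peaks of such unequal extent shared 13.5% of the region. At X 3673792 to 3674050 the scores were 1.76 in replicate 1 and 4.53 in replicate 2, and at X 7194589 to 7195307 they were 2.31 in replicate 1 and a mean of 3.54 over the 2 peaks of replicate 2. The region at X 3672150 to 3672393 scored 2.90 in replicate 1 and 3.33 in replicate 2. Of these 12 regions, 3 lay within the 5.29 kb from X 3669945 to 3675231.

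**Figure D1:**
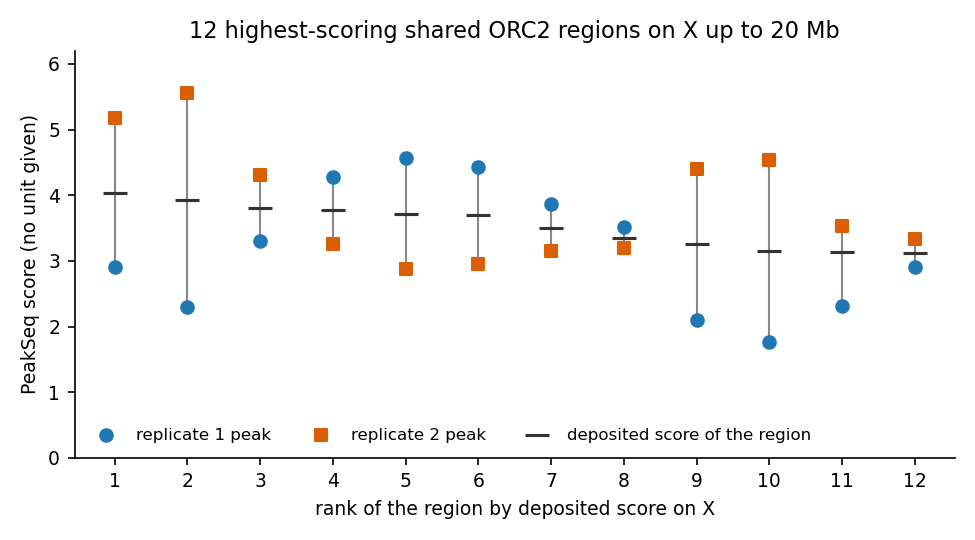
PeakSeq score (vertical axis, no unit given) of the replicate 1 peak (circle) and the replicate 2 peak (square) in each of the 12 shared X regions with the highest deposited score (bar), in order of rank. Replicate 2 is the higher in ranks 1 to 3 and 9 to 12, and replicate 1 in ranks 4 to 8, and the gap is widest at rank 2, 2.29 against 5.55.

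Of the 5 widest shared regions on X, 1 was also among the 12 highest-scoring, and the others ranked 13, 42, 56 and 86 of 100 by score. The region at X 16110613 to 16111796 was 1184 bp wide, and the peaks of 1090 bp in replicate 1 and 1184 bp in replicate 2 overlapped over 92.1% of it. It scored 2.21 in replicate 1 and 2.73 in replicate 2, which placed it at rank 42 of the 100. The region of 769 bp at X 15705706 to 15706474 scored 2.07 in replicate 1 and 2.54 in replicate 2. The region of 575 bp at X 15604160 to 15604734 scored 1.84 in replicate 1 and 2.29 in replicate 2, at rank 86. A region of 614 bp at X 13457553 to 13458166 had the smallest score difference of all 100, with 3.103 in replicate 1 and 3.099 in replicate 2. The remaining one of the 5 widest was the region of 719 bp at X 7194589 to 7195307 already given.

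Over the 100 shared regions on X, the scores of both replicates were weakly related across regions (Pearson's r 0.16, Spearman's rho 0.17). Over the 304 regions of 2L, 3L and 3R these were 0.31 and 0.26. Regions are not replicates and share the libraries, so these values are descriptions. Replicate 2 had the higher score in 59 of 100 X regions (59.0%), against 215 of 304 regions on these 3 arms (70.7%). The difference was -11.7 percentage points (Newcombe 95% interval -22.6 to -1.14). This comparison was added after its values were seen, and it sets scores of different lists side by side.

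X peaks were found again in the other replicate about as often as those of 2L, 3L and 3R. Of the X peaks of replicate 1, 100 of 252 overlapped a replicate 2 peak by 1 bp or more (39.7%, Wilson interval 33.8 to 45.8), where the whole list gave 39.0%. On 2L, 3L and 3R the share was 38.5% (35.2 to 42.0), and the difference of 1.15 points had a Newcombe interval of -5.63 to 8.15. Of the X peaks of replicate 2, 102 of 281 met a replicate 1 peak (36.3%, 30.9 to 42.1), where the whole list gave 34.1%. The 3 arms gave 34.9% (31.8 to 38.1), with a difference of 1.37 points (-4.91 to 7.92). Neither interval leaves out 0, and both allow a difference of several points in either direction. With a gap of up to 1 kb allowed, 132 of 252 X peaks of replicate 1 (52.4%) and 137 of 281 of replicate 2 (48.8%) had a partner, against 51.5% and 47.3% on the 3 arms.

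X peaks with a partner were wider than those without. In replicate 1 the matched X peaks had a median width of 208 bp and the unmatched ones 116.5 bp, against 219.5 and 113 bp on 2L, 3L and 3R. In replicate 2 the matched X peaks had a median of 148 bp and the unmatched ones 75 bp, against 139 and 69 bp on the arms. The share matched was 11.1% (5.49 to 21.2) of the X peaks of replicate 1 up to 90 bp wide and 63.4% (51.8 to 73.6) of those from 232 bp up. In replicate 2 it was 13.4% (7.23 to 23.6) of X peaks up to 49 bp and 76.9% (65.4 to 85.5) of those from 152 bp up. The intervals of X and the arms separated in 1 of the 8 width classes of both replicates. In replicate 1, 26 of 54 X peaks of 91 to 138 bp were matched (48.1%, 35.4 to 61.1), against 27.0% (21.3 to 33.4) on the arms. The nearest class of replicate 2, 93 to 151 bp, gave 33.3% (23.7 to 44.6) on X and 42.2% (36.1 to 48.7) on the arms, where X was the lower one and the intervals overlapped.

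**Figure D2:**
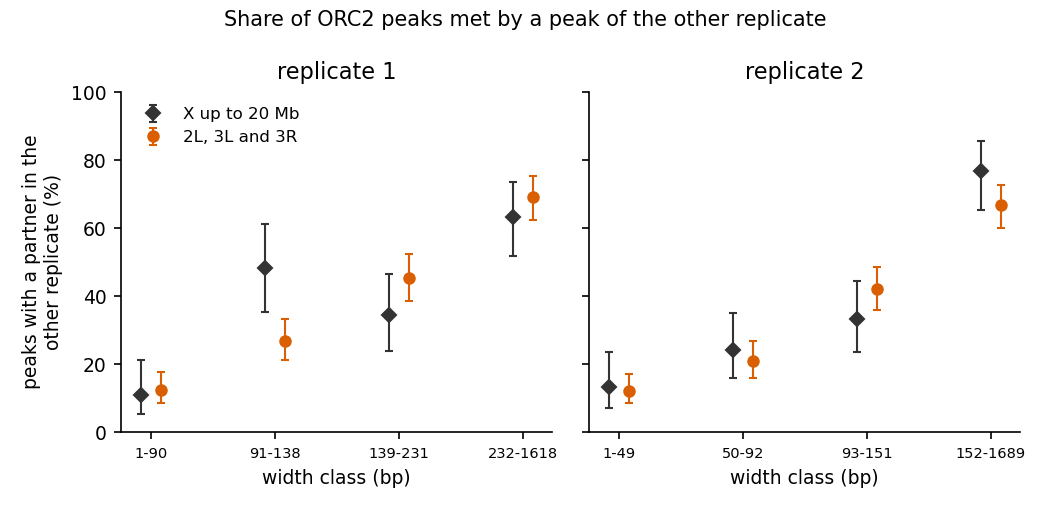
Share of peaks with at least 1 bp in common with a peak of the other replicate (vertical axis, percent, Wilson 95% intervals as bars) by width class (horizontal axis, bp, cut at the quartiles of each list) for X up to 20 Mb (diamonds) and for 2L, 3L and 3R (circles). The widest class has the highest share on X and on the arms, the X share of replicate 1 dips in the class of 139 to 231 bp, and the intervals separate in the class of 91 to 138 bp of replicate 1 alone, 48.1% on X against 27.0%.

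The peaks found in 1 replicate alone included the highest scores on X. In replicate 1, 3 of the 10 highest-scoring X peaks had a partner, against 39.7% of all its X peaks. In replicate 2 it was also 3 of 10, against 36.3%. Counts out of 10 do not set these peaks apart from the rest. The highest X peak of replicate 1 with no replicate 2 peak within 1 kb scored 5.32 and was 4 bp wide, at X 2504340 to 2504343. It was followed by a peak of 57 bp at X 11694069 to 11694125, with a score of 5.08, and one of 61 bp at X 3150082 to 3150142, with 4.97. All 3 were narrower than the median X peak of their list, 151.5 bp. In replicate 2 the corresponding peaks lay at X 8924107 to 8924139, 18459991 to 18460062 and 11243965 to 11244085, with widths of 33, 72 and 121 bp. They had the same score to every printed digit, 4.826.

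X scores recurred in steps, and the commonest steps were absent from the other arms compared. In replicate 2 the score 2.518 stood at 13 X peaks, 3.147 at 8 and 1.888 at 5, and none of the 3 values occurred on 2L, 3L or 3R. The scores 3.147 and 1.888 were 1.25 and 0.75 times the commonest one, ratios of small whole numbers. In replicate 1 the commonest X score was 2.901, at 8 peaks, followed by 2.694 at 6 and 2.418 at 5, and these too were absent from the 3 arms. Of the distinct X scores, 7 of 196 in replicate 1 (3.57%) and 7 of 186 in replicate 2 (3.76%) were also found on 2L, 3L or 3R within a relative tolerance of 2e-05. The X peaks at the commonest scores were narrow, with median widths of 47 bp at 2.901 in replicate 1 and 74 bp at 2.518 in replicate 2.

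A factor was sought for each arm that would lay its steps over those of X. For each arm and list, the ratio of an X score to an arm score that occurred most often was taken, with ratios counted as equal within 1e-05. In replicate 1 this factor was 0.948 for 2L, 0.944 for 3L and 1.01 for 3R, resting on 167, 247 and 265 pairs of equal ratio, where the next most frequent ratio had 124, 134 and 187. In replicate 2 the factors were 0.987 for 2L, 0.969 for 3L and 1.02 for 3R, resting on 383, 490 and 482 pairs, against 191, 241 and 263 at the next ratio. With arm scores multiplied by their factor, 105 of the 196 distinct X scores of replicate 1 (53.6%) and 124 of the 186 of replicate 2 (66.7%) also occurred on an arm. The factor was chosen to make scores coincide, so a rise in these shares was built in. The shares at the next most frequent ratio were not computed. By these factors, scores on 2L and 3L ran on a scale that was 1.28% to 5.90% larger than that of X. Scores on 3R ran on one that was smaller by at most 2.17%. The source of these scales is not given in the sources used here. This step was chosen after the data were seen, and scores multiplied by the factor are called scores on the X scale below.

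X peaks scored higher than those of 2L, 3L and 3R in both replicates. The median was 2.30 on X and 2.15 on 2L, 3L and 3R in replicate 1, and 2.62 on X and 2.41 on the arms in replicate 2. The shared regions had medians of 2.40 on X and 2.27 on the arms. An X peak had the higher score in 58.5% of all pairs of an X peak and an arm peak in replicate 1, in 58.1% in replicate 2 and in 59.9% of pairs of shared regions. The distributions overlapped widely. Within the 4 width classes the X median was the higher one in 4 of 4 in replicate 1, by 0.06 to 0.20, and in 4 of 4 in replicate 2, by 0.197 to 0.256. For shared regions it was the higher one in 3 of 4 classes, by 0.05 to 0.26, and the lower one at 163 to 243 bp, with 2.33 on X and 2.35 on the arms. Score and width were inversely related on X in replicate 1 (Spearman's rho -0.45 across peaks) and scarcely in replicate 2 (-0.06).

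On the X scale the difference from the pooled arms was 0.20 in replicate 1 and 0.23 in replicate 2, against 0.15 and 0.22 as deposited. In replicate 1 the arm medians became 2.02 on 2L, 2.13 on 3L and 2.18 on 3R, and X stood above them by 0.28, 0.18 and 0.13. As deposited, it stood above them by 0.17, 0.05 and 0.15. In replicate 2 the arm medians became 2.395 on 2L, 2.396 on 3L and 2.385 on 3R, almost 1 value, and X stood above them by 0.227, 0.227 and 0.237. As deposited, the differences in replicate 2 were 0.197, 0.149 and 0.289. The 3 arms thus came closer together on the X scale in replicate 2, but not in replicate 1. The share of shared regions in which replicate 2 had the higher score also depended on the scale. On the X scale it was 59.0% on X and 75.3% on the arms. The difference was -16.3 points (Newcombe interval -27.1 to -5.85), against -11.7 as deposited. Against 2L, 3L and 3R alone the intervals on the X scale ended at -5.65, -3.83 and -0.299. Scores of ChIP peaks could not be set against input here.

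**Figure D3:**
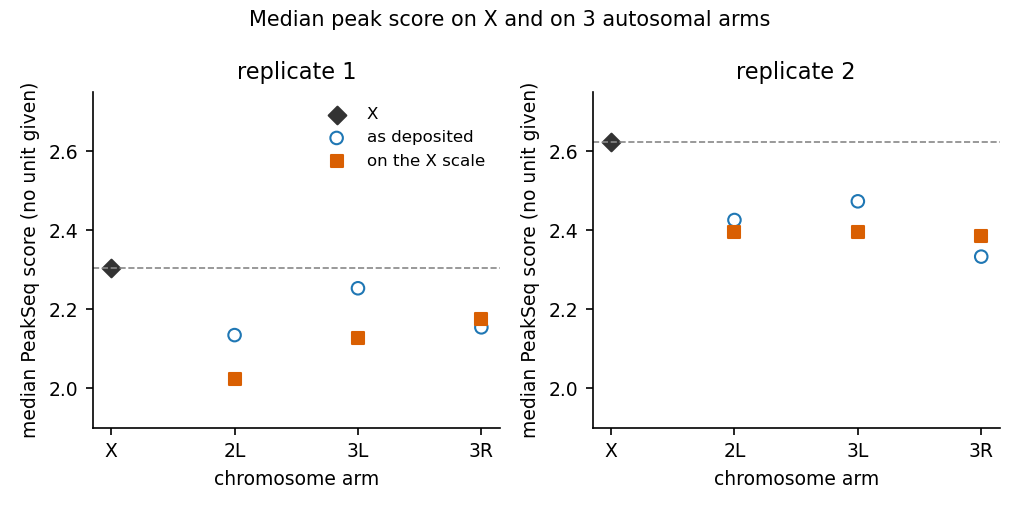
Median PeakSeq score (vertical axis, no unit given) on X up to 20 Mb (diamond, dashed line) and on 2L, 3L and 3R, as deposited (open circles) and multiplied by the factor that brings each arm onto the X scale (squares), in replicate 1 and replicate 2. All arm medians lie below X, and on the X scale those of replicate 2 fall together at 2.385 to 2.396.

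Peaks were not detectably denser on X when all scores were counted. X held 12.6 peaks per Mb in replicate 1 and 14.05 in replicate 2, against 11.5 and 12.8 per Mb on 2L, 3L and 3R. The ratios were 1.099 (95% interval 0.950 to 1.27) and 1.10 (0.959 to 1.26), and for shared regions, at 5.0 per Mb on X and 4.42 on the arms, 1.13 (0.894 to 1.42). Each had an adjusted p of 0.426 (exact binomial test, two-sided, Benjamini-Hochberg over the 12 comparisons of 3 lists with the pooled arms and each arm). Among single arms, the largest ratio was to 3R in all 3 lists, 1.18 in replicate 1, 1.13 in replicate 2 and 1.36 for shared regions (1.02 to 1.82; exact binomial p = 0.036, adjusted p = 0.355). The test and its intervals, made from Clopper-Pearson limits, treat peaks as independent, which neighbouring peaks are not. They cover counting error only.

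High-scoring peaks, in contrast, were denser on X. Among peaks above the median score of their list, X carried 149 in replicate 1 and the 3 arms 373, a density ratio of 1.37 (1.13 to 1.67; exact binomial test, adjusted p = 0.00272). In replicate 2 the counts were 166 on X and 420 on the arms, a ratio of 1.36 (1.13 to 1.63; exact binomial adjusted p = 0.00258). For shared regions the counts were 66 on X and 148 on the arms, a ratio of 1.53 (1.13 to 2.07). That the upper part of the shared list is rich in X regions was known before the replicate lists were compared, so this ratio is given as a description. The replicate lists contain the peaks that make up the shared regions and are not independent of it. Without every peak that had a partner, 97 peaks of replicate 1 on X and 247 on the arms lay above the median of the list, a ratio of 1.35 (1.06 to 1.72). For replicate 2 these were 108 on X and 277 on the arms, a ratio of 1.34 (1.06 to 1.68). Both had an adjusted p of 0.0342 (exact binomial test, two-sided, Benjamini-Hochberg over 8 comparisons), in a comparison added after the data were seen. By arm and with all peaks, the ratio in replicate 1 was 1.52 against 2L, 1.53 against 3R and 1.14 against 3L, and the last did not pass (0.899 to 1.44; exact binomial adjusted p = 0.292). In replicate 2 it was 1.29 against 2L, 1.28 against 3L and 1.51 against 3R, and all 3 passed (exact binomial adjusted p = 0.0426, 0.0466 and 0.00203). For shared regions the ratios were 1.33 against 2L (0.913 to 1.96), 1.25 against 3L (0.866 to 1.81) and 2.24 against 3R (1.48 to 3.44). Only the interval against 3R left out 1. Among peaks with no partner, the ratio passed against 2L in replicate 1, at 1.85, and against 3L in replicate 2, at 1.41, and against no other single arm, at 1.09 to 1.33 (exact binomial adjusted p = 0.0019 and 0.0342, the others 0.0704 to 0.567). On the X scale the ratios to the pooled arms were 1.47 in replicate 1, 1.39 in replicate 2 and 1.71 for shared regions.

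The excess was graded along the score. In replicate 1 the density ratio of X to the arms was 0.711 (0.502 to 0.988) in the lowest of 4 score classes cut at the quartiles, 1.00 and 1.17 in the middle classes and 1.604 (1.22 to 2.10) in the highest. In replicate 2 it was 0.666 (0.476 to 0.913) in the lowest class, 1.08 and 1.21 in the middle classes and 1.52 (1.17 to 1.95) in the highest. Among listed peaks, X was thus short of low-scoring ones as well as rich in high-scoring ones. The lowest listed score was 1.60 on X and 1.42 on the arms in replicate 1. In replicate 2 these were 1.58 and 1.45. The cutoff that decided which peaks were listed is not given. For shared regions the lowest class held 13 on X and 83 on the arms, a ratio of 0.539 (0.276 to 0.973), and the ratio was largest in the next to highest class, 1.65 (1.07 to 2.502), with 1.42 (0.905 to 2.19) in the highest. On the X scale the lowest and highest classes of replicate 1 gave 0.522 (0.355 to 0.746) and 1.85 (1.42 to 2.41), and those of replicate 2 gave 0.671 (0.480 to 0.921) and 1.517 (1.18 to 1.95).

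**Figure D4:**
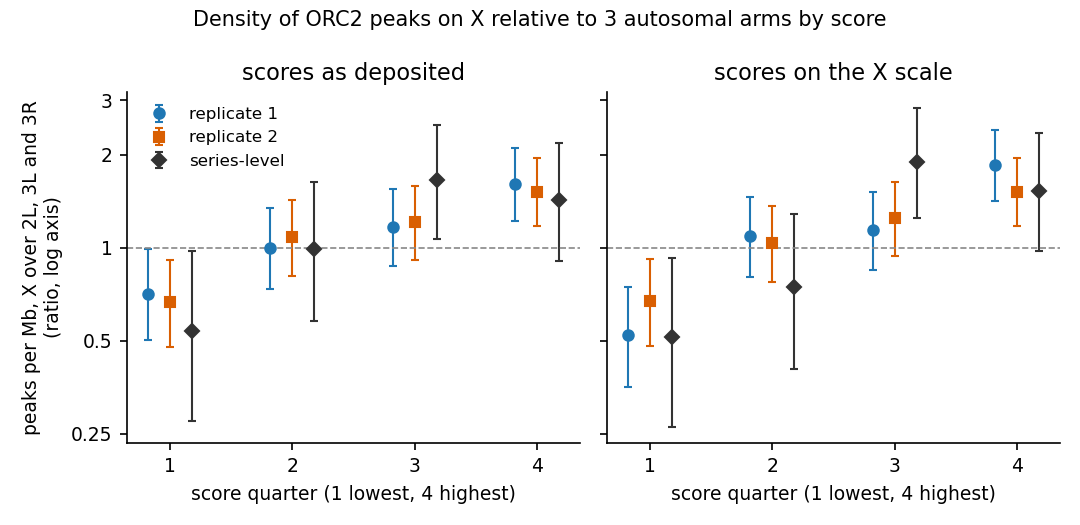
Density of peaks on X up to 20 Mb over that on 2L, 3L and 3R (vertical axis, ratio on a log scale, exact 95% intervals as bars) in each of 4 score classes cut at the quartiles of a list (horizontal axis, lowest to highest), for replicate 1, replicate 2 and the series-level list, with scores as deposited and on the X scale. The ratio lies below 1 in the lowest class of all 3 lists, and in the replicates it reaches 1.604 and 1.52 in the highest class as deposited.

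Widths of X peaks were close to those of the arms. The median was 151.5 bp on X and 138 bp on the arms in replicate 1, and 92 bp on both in replicate 2. For shared regions it was 242.5 bp on X and 244 bp on the arms. Peaks narrower than the 36 nt read made up 22 of 252 on X in replicate 1 (8.73%, Wilson interval 5.84 to 12.9) and 52 of 281 in replicate 2 (18.5%, 14.4 to 23.5), against 8.999% and 19.6% on the arms. None of the 100 shared regions on X was that narrow.

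Along X both replicates had their lowest count per 2 Mb in the same place, by a small margin in replicate 2. In windows of 2 Mb, replicate 1 had 10 peaks between 14 and 16 Mb and 23 to 32 in each of the other windows. Replicate 2 had 16 peaks between 14 and 16 Mb, 19 between 4 and 6 Mb and 25 to 40 elsewhere. The shared list had 4 regions between 14 and 16 Mb, its lowest count, and at most 14, between 8 and 10 Mb. The lowest 2 Mb windows of the arms held 15 peaks on 2L, 11 on 3L and 8 on 3R in replicate 2, all below the lowest X window. In replicate 1 they held 14 on 2L, 16 on 3L and 13 on 3R, all above it. No test was made of these windows.

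Windows of 1 Mb gave a finer view. The window from 19 to 20 Mb was the fullest in replicate 1, with 20 peaks, and shared the highest count of replicate 2, 28, with the window from 7 to 8 Mb. The lowest were 3 peaks between 14 and 15 Mb in replicate 1 and 6 peaks between 4 and 5 Mb in replicate 2. Replicate 2 had 9 peaks from 14 to 15 Mb and 7 from 15 to 16 Mb, no fewer than the 7 from 6 to 7 Mb. Over the 20 windows the counts of both replicates were related (Pearson's r 0.69, Spearman's rho 0.73), and the values on the arms ran from r = 0.46 on 3L to 0.79 on 3R. The windows share the genome and its mappable length, so these are descriptions. Counts of replicate 2 were the more uneven ones on X, with a variance of 2.93 times the mean, against 1.47 times in replicate 1.

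By stretches of 5 Mb, the members differed little in score. The median of replicate 1 lay between 2.26, from 15 to 20 Mb, and 2.34, from 0 to 5 Mb. That of replicate 2 lay between 2.52 and 2.73 in the same stretches. The share of X peaks matched was highest from 5 to 10 Mb in both replicates, 45.2% (Wilson interval 34.3 to 56.6) in replicate 1 and 44.2% (33.6 to 55.3) in replicate 2. The lowest were 36.7% (25.6 to 49.3) from 10 to 15 Mb in replicate 1 and 30.6% (21.1 to 42.0) from 15 to 20 Mb in replicate 2, and the intervals overlap. Matched peaks of both replicates belong to the same shared regions, 33 of them from 5 to 10 Mb, so their shares are not independent.

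Stretches without a shared region still held peaks of single replicates. The longest ran from X 16214485 to 17662243, 1448 kb, and held 9 peaks of replicate 1 and 10 of replicate 2. The next, 977 kb from X 10709959 to 11686506, held 7 peaks of replicate 1 and 10 of replicate 2. In the third, 852 kb from X 9588261 to 10440684, there were 5 and 4. These densities, 4.69 to 10.2 peaks per Mb, lay below the X averages of both replicates in all 3 stretches, which were chosen for their lack of shared regions. The longest gaps of the arms were of like size, from 1402 kb on 3L to 1686 kb on 2L. The median gap on X was 97.0 kb, close to the 97.8 kb of 2L and 85.3 kb of 3L, while 3R had 185 kb.

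Shared regions on X had a neighbour within 10 kb in 37 of 100 cases (37.0%, Wilson interval 28.2 to 46.8), where the whole list gave 33.3%. On the 3 arms together the share was 32.9% (27.9 to 38.4), and the difference of 4.11 points had a Newcombe interval of -6.27 to 15.1. The pooled value hides a spread between arms. X was lower than 2L by 13.9 points (difference -13.9, interval -26.8 to -0.391), higher than 3R by 19.1 points (6.57 to 30.8), and not distinguishable from 3L (difference 8.84, interval -4.01 to 21.3). The difference from 3R had an interval that included 0 within 5 kb (9.11, -2.69 to 20.5) and, within 10 kb, in the lists of replicate 1 (1.04, -7.40 to 9.46) and replicate 2 (5.07, -2.92 to 13.0). That from 2L had one within 20 kb (-7.83, -21.0 to 5.74) and, within 10 kb, in the list of replicate 2 (-4.90, -13.0 to 3.29). Its interval left out 0 within 5 kb (-18.3, -30.5 to -5.15) and, narrowly, within 10 kb in the list of replicate 1 (-8.93, -17.6 to -0.0957). These comparisons with single arms treat regions as independent. Against the pooled arms, the shares in the list of replicate 1 were 45.2% on X and 48.2% on the arms, and in that of replicate 2 they were 54.4% on X and 52.4% on the arms.

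Joining neighbours within 10 kb left 63 single regions, 9 pairs and 5 groups of 3 or more on X, and these groups held 19 of the 100 regions (19.0%, 12.5 to 27.8). On 2L, 8 groups held 26.4% (19.0 to 35.5) of its regions, on 3L 5 groups held 16.5% (10.6 to 24.9), and on 3R 1 group held 3.16% (1.08 to 8.88). The first X group, from 3637862 to 3643097, had 3 regions scoring 2.23 to 2.66. Replicate 1 had 3 peaks there, all matched, and replicate 2 had 4, of which 3 were matched. The second group, at 3669945 to 3675231, had 4 regions scoring 2.69 to 3.80, of which 3 were among the 12 highest on X. All 4 replicate 1 peaks there were matched, with scores of 1.76 to 3.30, as were 4 of the 6 replicate 2 peaks, with scores of 2.23 to 4.86.

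The third group was the longest, 14.4 kb from 7187462 to 7201888, with 5 regions scoring 2.27 to 3.13. Of its peaks, 5 of 6 in replicate 1 and 6 of 7 in replicate 2 were matched. The fourth, from 9578332 to 9588260, held the highest-scoring region of X, flanked by regions of 2.11 and 2.40, and another region of 3.09. Here 4 of 6 replicate 1 peaks and 4 of 4 replicate 2 peaks were matched. The fifth group, 3.26 kb from 16041672 to 16044934, held 3 regions, among them the lowest-scoring shared region of X, with 1.75. Its 3 peaks in either replicate were all matched. Within these groups, whose choice rests on shared regions, 19 of 22 replicate 1 peaks and 20 of 24 replicate 2 peaks were matched. After joining regions within 1 kb of each other, the groups still held 2, 3, 3, 3 and 3 separate sites.

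**Figure D5:**
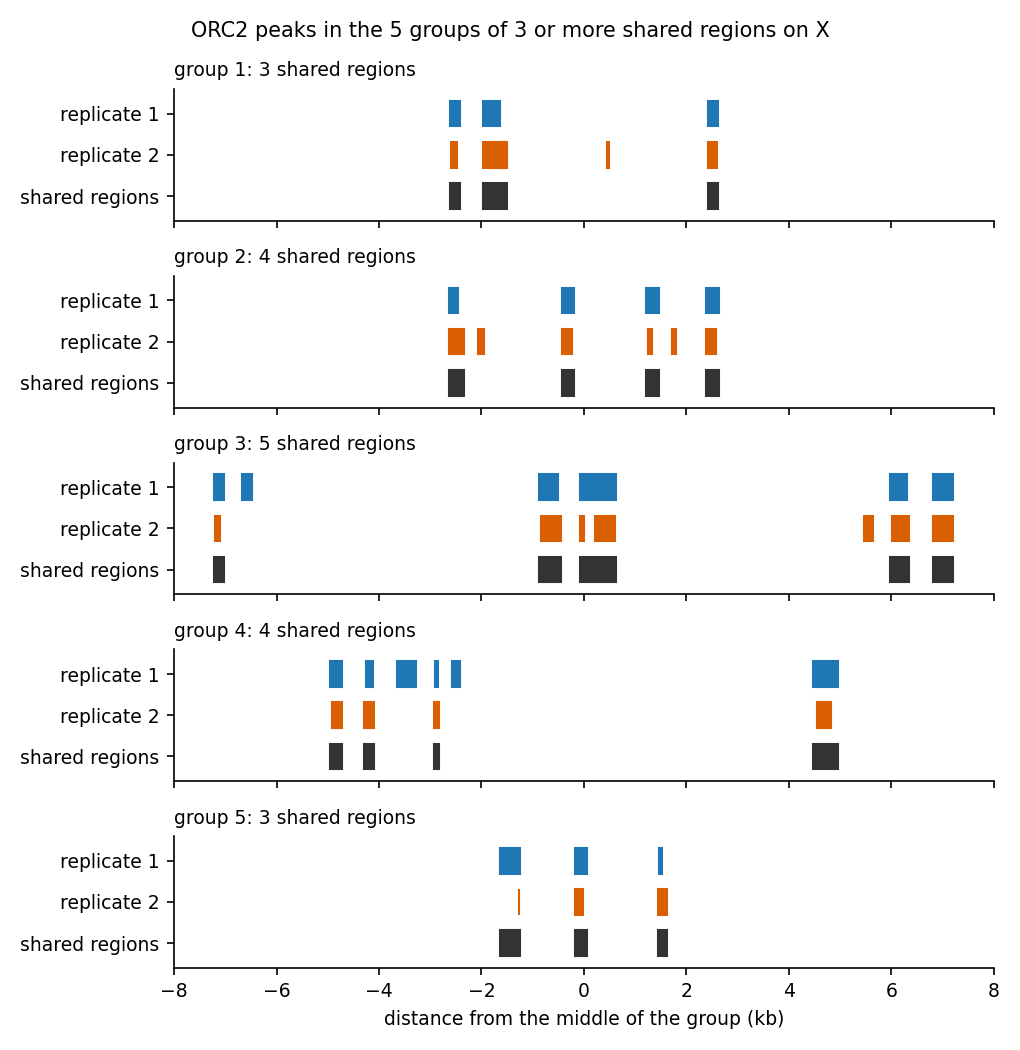
Peaks of replicate 1, peaks of replicate 2 and shared regions (bars, drawn to scale) in the 5 groups of 3 or more shared regions on X, against distance from the middle of the group (horizontal axis, kb). Most bars of one replicate stand above a bar of the other, with 3 unmatched peaks in replicate 1 and 4 in replicate 2.

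The limit at 20 Mb fell in a long gap of the shared list. The last 1 Mb before it held 20 peaks of replicate 1 and 28 of replicate 2. The last of these began at X 19780948 in replicate 1 and X 19780973 in replicate 2. The last shared region inside it was the one at X 19780948 to 19781450, with a score of 3.25, and the first outside lay at X 21216229 to 21216396, with 2.06. In replicate 1 the last peak inside scored 2.10 and the first outside, at X 20107451, scored 2.37. In replicate 2 these scores were 4.41 and 2.69, the second at X 20053131.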

How the data were processed

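Peak lists of 2 ORC2 ChIP-seq samples and 1 series-level list were analysed. Per the file headers, coordinates are on FlyBase release 5.1, and each line names PeakSeq as its source. No source used here gives the aligner, the PeakSeq settings or the control. The score in each list is as the authors deposited it, with no unit. Positions (first and last base) are also as deposited, and no read count is given, so depth is unknown. The labels number 2 extractions without saying whether embryos were collected separately, and replicate spread may be technical.

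X was compared with 2L up to 21 Mb, 3L up to 22 Mb and 3R from 2 Mb to its last peak. Arm 2R was left out of these comparisons, although its peaks count in the whole lists. Counts were tested with an exact binomial test, two-sided, with lengths as expectation. Differences of shares carry Newcombe 95% intervals and no p. Medians are descriptions, and scores of X and the arms were compared within 1 list. Scores of both replicates were set side by side for shared regions only, as a description. Regions named were the 12 highest-scoring, the 5 widest, groups of 3 or more within 10 kb, the top 3 unmatched peaks per replicate (over 1 kb from any peak of the other), the 3 longest gaps, the regions at the 20 Mb limit and those with the extreme score differences. Alternatives were other bounds, joining within 1 kb, leaving out peaks under 36 bp, other overlaps and distances, and leaving out a replicate. Members and comparisons were chosen with earlier results of these data known. Factors between arm scores and the test on peaks with no partner were added after seeing the values. No genome of release 5.1 was used, so no sequences are shown. Scripts, first tested on simulated data, ran under Python 3.11.15 with SciPy 1.17.1, pandas 2.3.3, matplotlib 3.10.9 and NumPy 2.4.6.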

Additional observations from a re-analysis of the deposited data

Results flagged for a closer look

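Peaks on X beyond 20 Mb lay outside the comparisons. Replicate 1 had 9 there and replicate 2 had 8, given here because the comparisons leave them out, and 1 peak of either replicate had a partner in the other. No control list was analysed beside them.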

How the results depend on the processing

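Of 87 values under the alternatives, 72 kept their direction, their side of the threshold and, where untested, their size within the spread between replicates. Leaving out a replicate put the list of the other in place of the shared one. Those values, counted among the 87, repeat ones already given for single replicates. With peaks treated as independent, the excess of X over the pooled arms among high-scoring peaks passed under each alternative run but 1. The exception was the highest score class of the shared list, where the ratio was 1.42 and its interval included 1. The median score difference stayed positive under each one. On the X scale it moved to 0.20 in replicate 1. Against 3L alone it was 0.0508, 0.149 and 0.0432 in replicate 1, replicate 2 and the shared list, against 3R alone 0.289 and 0.189 in replicate 2 and the shared list, and against 2L alone on the X scale 0.279 and 0.183 in replicate 1 and the shared list. For matched peaks of replicate 2 it was 0.152, and the single lists gave 0.150 to 0.216 in place of the shared one. Differences that reversed were small ones. They were the matched share of replicate 1 over whole arms (-0.0708 points) and the neighbour share within 5 kb (-1.29 points). With the list of replicate 1 in place of the shared one, the neighbour share (-2.92 points) and the median width (13.5 bp, against -1.5 bp) also reversed. With the list of replicate 2 these were 2.00 points and 0 bp and did not reverse. The cause was not tested. No paired analysis was possible because the 2 ChIP samples form 1 group and input was not analysed here. Unknown depth limits all values.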
